A study of Danio rerio with 16 samples.

Results

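Glycolysis converts glucose into pyruvate in the cytosol and yields ATP without oxygen. Zebrafish carry several paralogs for most of its steps, so that one reaction can be served by a muscle-type and by other enzymes. The adult heart burns mainly fatty acids, and glucose use by cardiomyocytes near a cryoinjury is known to increase during zebrafish heart regeneration. The genes described here encode glucose uptake through GLUT1 transporters, every enzyme from hexokinase to pyruvate kinase, lactate dehydrogenase and the lactate exporter MCT4. They were chosen by name as 35 genes of the pathway and not by their counts, but with earlier results of these data known. A gene was kept where at least 10 reads were counted in at least 2 samples. This left 34 glycolysis genes of the 18949 genes in the table that passed the same filter. The gene left out, aldoca, had at most 3 reads in any sample. The lowest member inside the limit was pklr, with 30 and 29 reads in its highest samples. Of the 34 genes, 6 (pfkma, pfkmb, aldoaa, aldoab, pgam2 and eno3) were set apart by their mammalian muscle forms and are called muscle paralogs. The other 28 are given apart. They include pkma and pkmb, although their mammalian counterpart PKM is also named after muscle.

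Expression was measured by bulk RNA-seq of ventricles from adult zebrafish. The nr4a1 mutants carried the CRISPR/Cas9-made nc40 allele, in which 1 inserted base in an early exon brings in a premature stop codon, and they were set against wild-type fish. The 8 conditions were mutant and wild type, each uninjured (0 days post-cryoinjury, dpci) and at 2, 7 and 21 dpci, with 2 samples a condition and 16 in all. The mutants are represented by 1 allele, which is not limited to a cell type. The sources used here state neither how many ventricles made up a sample, nor the strain of the wild type, nor the hour of collection. The 2 samples of a condition are called biological replicates in the study, but nothing says that they came from separate fish, so p-values measure only the spread between these samples.

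Between 14333475 and 27668498 reads a sample were counted on genes. The targeted gene, nr4a1, kept reads in all mutant samples, with log2 fold changes, mutant over wild type, of 1.43, −0.043, −0.68 and 0.27 at 0, 2, 7 and 21 dpci. Counts per gene do not tell the alleles apart, so they do not check the genotype. Cardiomyocyte markers were abundant in all samples (summed level 33358 to 69831 CPM over the 9 markers tested), as the label ventricle asks. CPM are read counts scaled to library size, with TMM factors from edgeR, and SE is the standard error of a log2 fold change. Of the 13 skeletal muscle markers tested, 9 stayed at or under 10 CPM in every sample. Among them the fast myosin myhz2 and the parvalbumin pvalb4 reached 0.759 and 3.03 CPM at most. The highest of the 9 was actc1b, which reached 7.62 CPM in wild type and 2.02 CPM in mutants. In mutants the highest was atp2a1, with up to 3.51 CPM, against up to 3.58 CPM in wild type. The other 4 (ckma, ckmb, acta1a and acta1b) are creatine kinase and actin genes that the heart also uses. In bulk tissue, fewer cells of a type and less RNA per cell cannot be told apart. Collection hour matters for genes under the circadian clock, and the clock gene nr1d1 differed between genotypes at every stage, with log2 fold changes, mutant over wild type, of 2.48 at 0 dpci, 1.36 at 2 dpci, 3.20 at 7 dpci and −1.76 at 21 dpci. The part of the clock or of the collection hour in the genotype differences below was not tested. The study's authors took batch effects into account in their own fit. The sample labels name no batch, so the fit here holds none, and the part of a batch in these differences was not tested.

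Glycolysis transcripts together were lower in mutants than in wild type at every stage, and in both genotypes they were lowest at 2 dpci. Their summed level in mutants was 39393 and 39962 CPM at 0 dpci, 17667 and 17595 CPM at 2 dpci, 22538 and 22699 CPM at 7 dpci and 31345 and 31932 CPM at 21 dpci. In wild type it was 43606 and 43708 CPM at 0 dpci, 22511 and 22509 CPM at 2 dpci, 28735 and 27999 CPM at 7 dpci and 43977 and 43970.1 CPM at 21 dpci. The genotypes did not overlap at any stage, and the wild-type sum at 21 dpci was again at its uninjured level while the mutant sum was not. As a share of the wild-type mean, the mutant mean was 90.9% at 0 dpci, 78.3% at 2 dpci, 79.7% at 7 dpci and 71.9% at 21 dpci. The CPM carry TMM factors, which differed between conditions (at 21 dpci 0.956 and 0.957 in mutants, 0.854 and 0.852 in wild type). Without these factors, glycolysis genes averaged 3.52%, 2.05%, 2.49% and 3.02% of all counted reads in mutants at these stages. In wild type they averaged 3.82%, 2.57%, 3.07% and 3.75%. Mutants stayed below wild type at each stage, but relative to wild type their deficit at 21 dpci was smaller than in CPM. With 2 samples against 2 an exact permutation test of a sum cannot reach p < 0.05, so none is given. A single gene, gapdh, supplied between 29.2% (mutants at 2 dpci) and 46.3% (mutants at 0 dpci) of this sum as a condition mean. Without gapdh the mutant share of the wild-type sum was 86.5%, 83.8%, 85.95% and 75.01% at 0, 2, 7 and 21 dpci. Cardiomyocyte markers in sum were also lower in mutants, and the mutant share of their summed level in wild type was 90.8%, 85.8%, 87.9% and 85.5% at the same stages. Their part in the glycolysis sums was not tested.

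**Figure D1:**
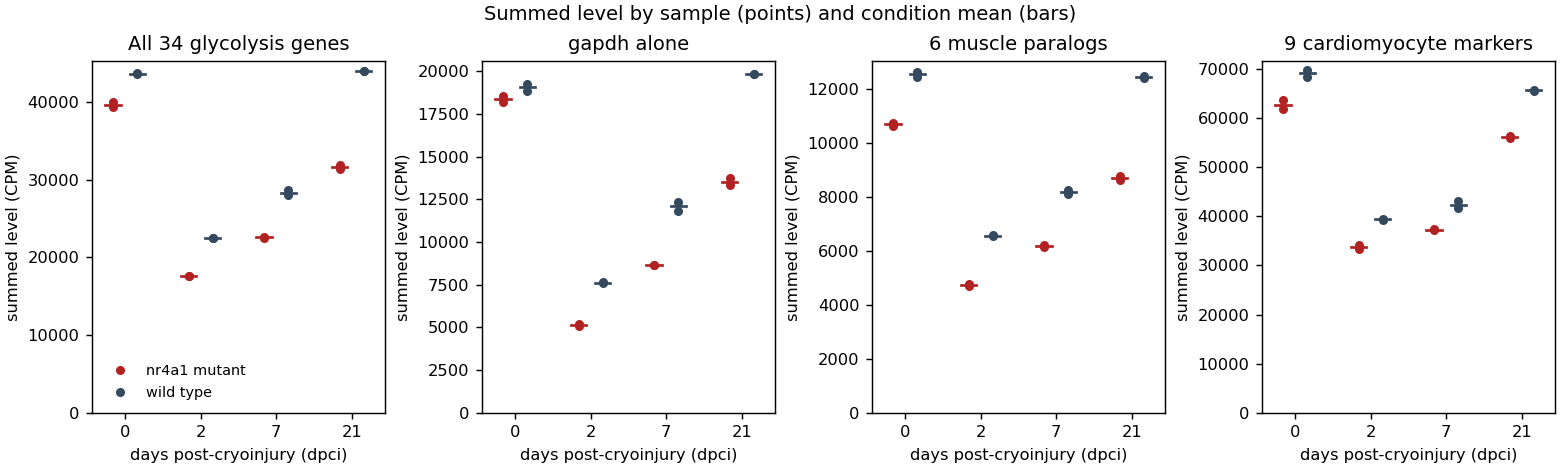
Summed level in CPM (library-scaled read counts, linear axes from 0) of all 34 glycolysis genes, gapdh alone, the 6 muscle paralogs and 9 cardiomyocyte markers against days post-cryoinjury. Points are the 2 samples of a condition and bars their mean, with nr4a1 mutant (red) left of wild type (dark); mutant points lie below wild-type points at every stage in all 4 panels, and all panels are lowest at 2 dpci.

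The next comparison asks how the pathway responded to cryoinjury within each genotype. A gene is called where edgeR's quasi-likelihood test gave a Benjamini-Hochberg adjusted p under 0.05 over all 18949 genes and the log2 fold change exceeded 0.5 in size, and "rose" and "fell" are used of called genes only. At 2 dpci over 0 dpci, 4 of the 34 genes rose and 20 fell in mutants, where 45.2% of all tested genes were called (24.4% higher and 20.8% lower). In wild type 4 rose and 17 fell, against 41.9% of all genes called (22.9% higher and 19% lower). On the log2 scale the 34 genes had a median change of −0.67 in mutants and −0.49 in wild type, whereas over all genes it was 0.00039 and 0.021. Lower calls thus made up a larger share of the glycolysis genes than of all genes in both genotypes, and higher calls a smaller one. The 9 cardiomyocyte markers had medians of −0.80 in mutants and −0.75 in wild type on the log2 scale in the same comparisons, and their part in the fall of the glycolysis genes was not tested.

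At 7 dpci over 0 dpci, 2 genes rose and 17 fell in mutants (33.6% of all genes were called, 20.2% higher and 13.4% lower), and 2 rose and 18 fell in wild type (33.2% called, 20.3% higher and 13% lower). At 21 dpci over 0 dpci, 5 genes fell in mutants (20% of all genes called, 6.92% lower), and 4 rose and 4 fell in wild type (23.4% called). No gene rose in mutants by edgeR or by DESeq2, and 1 gene lay above 0 at an unadjusted p under 0.05 in edgeR. The 21 dpci counts were the least stable. Without the second mutant sample of 0 or of 21 dpci, 3 genes were called in mutants in place of 5, and without the second wild-type sample of 0 or of 21 dpci, 5 were called in wild type in place of 8.

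Recovery between 7 and 21 dpci was counted directly, since neither of these samples enters the uninjured level. In mutants 10 of the 34 genes rose and 2 fell, with a median log2 fold change of 0.32 (29.8% of all genes called, 12.8% higher). In wild type 22 rose and 3 fell, with a median of 0.58 (37% of all genes called, 16.6% higher). All 6 muscle paralogs were among the genes that rose in wild type and 3 of the 6 in mutants, with medians of 0.46 in mutants and 0.68 in wild type. The difference between these 2 counts was not tested. Between 2 and 7 dpci, 6 genes rose and 5 fell in mutants (21.8% of all genes called), and 6 rose and 5 fell in wild type (23.4% called).

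**Figure D2:**
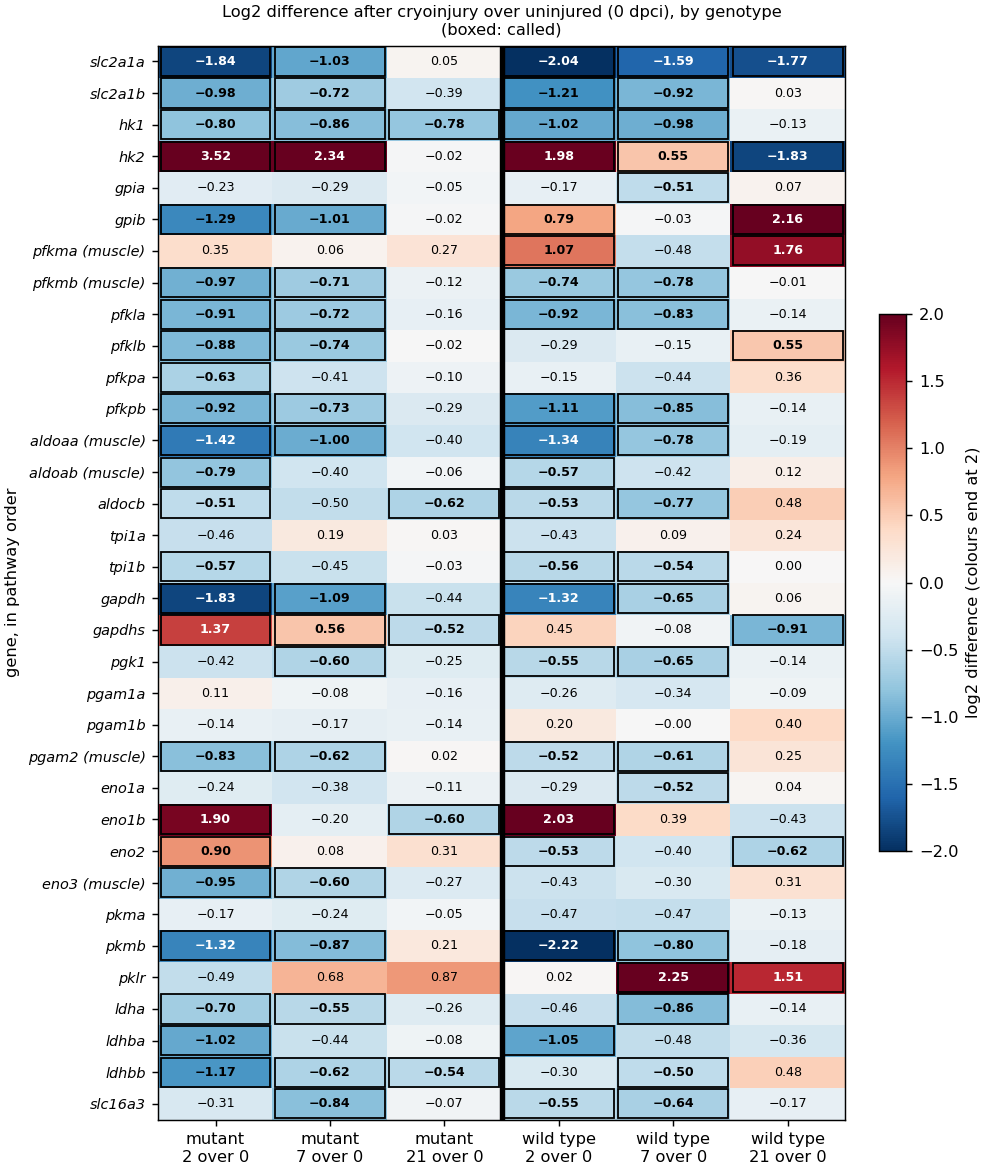
Log2 fold change of the 34 glycolysis genes, in pathway order from top to bottom, after cryoinjury over uninjured hearts at 2, 7 and 21 dpci in mutants (left 3 columns) and wild type (right 3 columns). Red is higher and blue lower after injury, colours end at 2, and boxed cells passed the test; most cells of the 2 and 7 dpci columns are blue, with hk2 and eno1b red at 2 dpci in both genotypes.

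The comparison of genotypes asks how the mutant and wild-type samples differed at each stage, and its 4 stages share no sample. At 0 dpci 5 of the 34 genes were higher and 7 lower in mutants, where 23.7% of all genes were called (11.9% higher and 11.8% lower). At 2 dpci 1 was higher and 8 lower, with 16.8% of all genes called (8.35% higher, 8.5% lower). At 7 dpci 3 were higher and 4 lower, with 13% called (7.03% higher, 5.94% lower). At 21 dpci 2 were higher and 10 lower, with 16.3% called (9.49% higher, 6.83% lower). Lower calls were thus a larger share of the glycolysis genes than of all genes at each stage, and higher calls a smaller share at 2 and 21 dpci. Median log2 fold changes of the 34 genes were −0.10, −0.084, −0.0081 and −0.29 at 0, 2, 7 and 21 dpci, beside 0.015, 0.021, 0.00027 and 0.018 over all genes. Over the stages, 20 of the 34 genes (58.8%) were called at least once, beside 43.4% of all genes, and 14 at none. Both pkmb and pfkma were lower at all 4 stages, which held for 117 of all 18949 genes (0.617%). Calls in opposite directions at different stages were made for hk2 and gpib, or 5.88% of the 34 genes, near the 5.1% over all genes. The samples of the genotypes did not overlap for 69.8%, 65.3%, 59.2% and 65.3% of all genes at 0, 2, 7 and 21 dpci. Among the 34 genes, all mutant samples lay below wild type for 22, 20, 16 and 26, and above it for 8, 10, 12 and 6. Of all 18949 genes, 6354, 5856, 5547 and 6061 lay below, and 6873, 6514, 5666 and 6304 above. Genes lying below wild type made up a larger share of the 34 than of all genes at each stage. Lack of overlap, given for single genes below, was thus common over all genes and does not by itself set a gene apart.

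The 6 muscle paralogs shared a sign but not a size. All had a log2 fold change below 0 at every stage, with medians of −0.26 at 0 dpci, −0.58 at 2 dpci, −0.39 at 7 dpci and −0.52 at 21 dpci. At 2 dpci they ranged between −2.39 and −0.31, and at 21 dpci between −3.15 and −0.19. Among the 6, 1, 4, 1 and 3 were called lower at 0, 2, 7 and 21 dpci. Of the other 28 genes, 9, 12, 17 and 7 lay above 0 at the same stages, with medians of −0.078, −0.032, 0.036 and −0.25. The 9 cardiomyocyte markers had medians of 0.025, −0.13, −0.02 and −0.16. Of these markers, 1 was called lower at 2 and 7 dpci and 1 higher at 2, 7 and 21 dpci. Their part in the levels of the muscle paralogs was not tested.

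**Figure D3:**
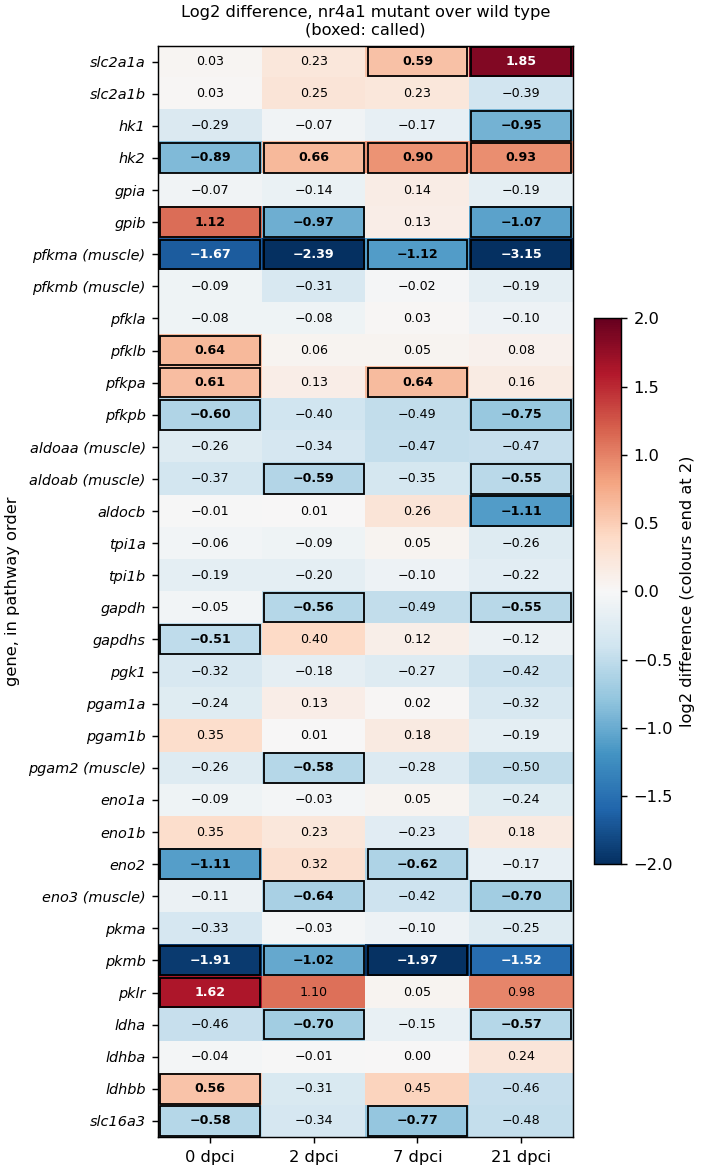
Log2 fold change, nr4a1 mutant over wild type, of the 34 glycolysis genes in pathway order at 0, 2, 7 and 21 dpci. Red is higher and blue lower in mutants, colours end at 2, and boxed cells passed the test; pfkma and pkmb are boxed blue at all 4 stages, hk2 turns from blue at 0 dpci to red after injury, and the 21 dpci column holds 10 blue boxes and 2 red ones.

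Glucose enters through GLUT1, encoded by slc2a1a and slc2a1b. In mutants slc2a1a stood at 52.4 and 50.9 CPM at 0 dpci, 13.99 and 14.8 CPM at 2 dpci, 25.00 and 25.5 CPM at 7 dpci and 53.7 and 53.3 CPM at 21 dpci. Levels in wild type were 48.9 and 52.2 CPM at 0 dpci, 11.8 and 12.8 CPM at 2 dpci, 15.8 and 17.5 CPM at 7 dpci and 14.9 and 14.8 CPM at 21 dpci. The genotypes overlapped only at 0 dpci, and at 21 dpci the mutant level was back at its uninjured value while the wild-type level had stayed low. The log2 fold change, mutant over wild type, was 0.59 (SE 0.0854, adjusted p = 3.38e-08 in edgeR) at 7 dpci and 1.85 (SE 0.0792, adjusted p = 2.95e-32 in edgeR) at 21 dpci, and it missed the call at 0 dpci (0.033) and at 2 dpci (0.23). After injury slc2a1a fell in mutants by 1.84 on the log2 scale at 2 dpci (SE 0.07902, adjusted p = 2.71e-33 in edgeR) and by 1.03 at 7 dpci (SE 0.0726, adjusted p = 3.85e-21 in edgeR). The corresponding log2 fold changes in wild type were −2.04 (SE 0.0801, adjusted p = 1.59e-35 in edgeR) at 2 dpci, −1.59 (SE 0.0751, adjusted p = 1.24e-30 in edgeR) at 7 dpci and −1.77 (SE 0.0786, adjusted p = 1.02e-31 in edgeR) at 21 dpci. Its paralog slc2a1b averaged 309, 157, 188 and 236 CPM in mutants at 0, 2, 7 and 21 dpci, against 303, 131, 160.5 and 309 CPM in wild type, and was called between genotypes at no stage. At 21 dpci, 23.1 and 22.2 reads of slc2a1a were counted per 100 reads of slc2a1b in mutants, against 4.81 and 4.81 in wild type.

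Hexokinase traps glucose in the cell as glucose 6-phosphate. In mutants hk2 stood at 6.08 and 5.46 CPM at 0 dpci, 68.1 and 64.6 CPM at 2 dpci, 28.9 and 29.8 CPM at 7 dpci and 5.89 and 5.51 CPM at 21 dpci. In wild type it stood at 10.3 and 11.1 CPM at 0 dpci, 41.9 and 42.3 CPM at 2 dpci, 15.8 and 15.6 CPM at 7 dpci and 2.58 and 3.46 CPM at 21 dpci. It was highest at 2 dpci in both genotypes, the genotypes overlapped at no stage, and mutants lay below wild type before injury and above it at all 3 stages after. The log2 fold change, mutant over wild type, was −0.89 (SE 0.121, adjusted p = 3.05e-09 in edgeR) at 0 dpci, 0.66 (SE 0.0716, adjusted p = 3.57e-12 in edgeR) at 2 dpci, 0.90 (SE 0.0896, adjusted p = 1.24e-13 in edgeR) at 7 dpci and 0.93 (SE 0.169, adjusted p = 5.62e-06 in edgeR) at 21 dpci. Over uninjured hearts hk2 had the largest rise of all 34 genes in mutants, with log2 fold changes of 3.52 (SE 0.0958, adjusted p = 1.44e-45 in edgeR) at 2 dpci and 2.34 (SE 0.106, adjusted p = 1.43e-31 in edgeR) at 7 dpci. In wild type its log2 fold changes were 1.98 (SE 0.0875, adjusted p = 1.98e-32 in edgeR) at 2 dpci, 0.55 (SE 0.1002, adjusted p = 2.35e-06 in edgeR) at 7 dpci and −1.83 (SE 0.145, adjusted p = 3.01e-18 in edgeR) at 21 dpci, so that it ended under its uninjured level. Without the first wild-type sample of 0 dpci the 7 dpci value was 0.50 and no longer passed the call. The genotype difference in hk2 changed from that at 0 dpci by 1.54 (SE 0.1399, adjusted p = 2.63e-15 in edgeR) at 2 dpci, 1.79 (SE 0.1500, adjusted p = 1.53e-16 in edgeR) at 7 dpci and 1.82 (SE 0.207, adjusted p = 1.51e-11 in edgeR) at 21 dpci in log2 units, tested as an interaction in the same fit. These 3 interactions and all others below share the uninjured samples.

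The other hexokinase gene, hk1, was lower after injury. It averaged 591 ± 7.69, 339.9 ± 2.23, 326 ± 5.87 and 345 ± 0.0913 CPM in mutants at 0, 2, 7 and 21 dpci (SD, n = 2 each). In wild type it averaged 724 ± 0.471, 357 ± 1.01, 368 ± 4.84 and 664 ± 2.52 CPM (SD, n = 2 each). It fell at 2 and 7 dpci in both genotypes, and at 21 dpci the wild-type samples were near their uninjured level while the mutant samples were not. The log2 fold change at 21 over 0 dpci was −0.78 (SE 0.0326, adjusted p = 4.58e-33 in edgeR) in mutants, and at 7 over 0 dpci in wild type it was −0.98 (SE 0.0324, adjusted p = 6.28e-40 in edgeR). The genotypes differed by the call only at 21 dpci (−0.95 (SE 0.0327, adjusted p = 8.73e-38 in edgeR)). Per 100 reads of hk1, 20.1 and 18.9 reads of hk2 were counted in mutants at 2 dpci, against 11.7 and 11.9 in wild type. Before injury these read ratios were 1.02 and 0.932 in mutants and 1.42 and 1.53 in wild type.

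Glucose-6-phosphate isomerase turns glucose 6-phosphate into fructose 6-phosphate and is encoded by gpia and gpib. In mutants gpib stood at 339 and 337 CPM at 0 dpci, 137 and 139 CPM at 2 dpci, 169 and 166 CPM at 7 dpci and 338 and 328 CPM at 21 dpci. Wild-type samples stood at 158 and 154 CPM at 0 dpci, 263 and 277 CPM at 2 dpci, 156 and 149.8 CPM at 7 dpci and 695 and 700.1 CPM at 21 dpci. The courses crossed: mutants were above wild type at 0 dpci, below it at 2 dpci, close to it at 7 dpci and below it again at 21 dpci, with no overlap at any stage. Set over wild type, the mutant log2 fold change was 1.12 (SE 0.0373, adjusted p = 4.56e-39 in edgeR) at 0 dpci, −0.97 (SE 0.0388, adjusted p = 7.74e-34 in edgeR) at 2 dpci and −1.07 (SE 0.0355, adjusted p = 6.39e-39 in edgeR) at 21 dpci, and it missed the call at 7 dpci (0.13). In mutants gpib fell at 2 dpci (−1.29) and 7 dpci (−1.01), whereas in wild type it rose at 2 dpci (0.79) and had the largest rise of all 34 genes at 21 dpci, 2.16 (SE 0.0372, adjusted p = 1.9e-57 in edgeR). The change of the genotype difference from that at 0 dpci was −2.09 (SE 0.0538, adjusted p = 1.68e-45 in edgeR) at 2 dpci, −0.98 (SE 0.0543, adjusted p = 1.31e-25 in edgeR) at 7 dpci and −2.18 (SE 0.0514, adjusted p = 2e-48 in edgeR) at 21 dpci. By contrast, gpia kept between 299.9 and 452 CPM over all 16 samples and was called between genotypes at no stage. For each 100 reads of gpia, gpib had 81.8 and 84.3 reads at 0 dpci and 86.98 and 82.2 at 21 dpci in mutants, against 36.6 and 36.3 at 0 dpci and 155 and 155 at 21 dpci in wild type.

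Phosphofructokinase commits fructose 6-phosphate to glycolysis, and 6 genes encode its muscle (pfkma, pfkmb), liver (pfkla, pfklb) and platelet (pfkpa, pfkpb) type subunits, named after the mammalian forms. In mutants pfkma was low at every stage, with 1.09 and 0.974 CPM at 0 dpci, 1.05 and 1.55 CPM at 2 dpci, 1.08 and 1.08 CPM at 7 dpci and 1.09 and 1.42 CPM at 21 dpci. Levels in wild type were 4.42 and 2.14 CPM at 0 dpci, 6.39 and 7.45 CPM at 2 dpci, 2.43 and 2.31 CPM at 7 dpci and 11.4 and 10.98 CPM at 21 dpci. All mutant samples lay below all wild-type samples, including across stages, and the 2 wild-type samples of 0 dpci were spread more widely than those of the other stages. At 21 dpci its reads numbered 22 and 28 in mutant hearts, against 216 and 184 in wild-type hearts. Across genotypes, mutant over wild type, the log2 fold change was −1.67 (SE 0.282, adjusted p = 8.79e-07 in edgeR) at 0 dpci, −2.39 (SE 0.254, adjusted p = 1.2e-12 in edgeR) at 2 dpci, −1.12 (SE 0.316, adjusted p = 0.00425 in edgeR) at 7 dpci and −3.15 (SE 0.239, adjusted p = 7.25e-19 in edgeR) at 21 dpci. In wild type pfkma rose by 1.07 (SE 0.206, adjusted p = 5.98e-06 in edgeR) at 2 dpci and 1.76 (SE 0.197, adjusted p = 4.85e-12 in edgeR) at 21 dpci over uninjured hearts, and in mutants it was called at no stage after injury (0.35, 0.063 and 0.27 at 2, 7 and 21 dpci). Only the 21 dpci interaction was called, at −1.49 (SE 0.407, adjusted p = 0.00228 in edgeR). The paralog pfkmb was counted at far higher numbers and differed little between genotypes, with log2 fold changes of −0.087, −0.31, −0.017 and −0.19 at 0, 2, 7 and 21 dpci, none of them called. Of the 13 skeletal muscle markers, 2 were called higher and 3 lower in mutants at 0 dpci. At 2 dpci 4 were lower, at 7 dpci 4 were lower, and at 21 dpci 6 were higher and 2 lower. Their called shares at these stages were 38.5%, 30.8%, 30.8% and 61.5%, beside 23.7%, 16.8%, 13% and 16.3% of all genes. The 9 markers at or under 10 CPM in every sample are given above beside the 4 that the heart uses. Their part in the level of pfkma was not tested.

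The platelet-type subunits differed between genotypes in opposite directions. Mutants had more pfkpa, with 379 and 375 CPM in mutants against 253 and 239.8 CPM in wild type at 0 dpci and 281 and 287 CPM in mutants against 182 and 182 CPM in wild type at 7 dpci. The log2 fold change of pfkpa was 0.61 (SE 0.0364, adjusted p = 1.88e-24 in edgeR) at 0 dpci and 0.64 (SE 0.0382, adjusted p = 4.73e-24 in edgeR) at 7 dpci, with values of 0.13 and 0.16 under the call at 2 and 21 dpci. Mutants had less pfkpb, with 256 and 262 CPM in mutants, against 392 and 393 CPM in wild-type hearts at 0 dpci, and 216 and 207 CPM in mutants, against 356 and 356 CPM in wild-type hearts at 21 dpci. Its log2 fold change was −0.60 (SE 0.0369, adjusted p = 1.25e-23 in edgeR) at 0 dpci and −0.75 (SE 0.03803, adjusted p = 4.92e-28 in edgeR) at 21 dpci, with −0.40 and −0.49 at 2 and 7 dpci. Per 100 reads of pfkpb there were 148 and 143 reads of pfkpa in mutants at 0 dpci, against 64.6 and 61.00 in wild type, and the mutant ratios lay above the wild-type ratios at each stage without overlap. Of the liver-type genes, pfklb was higher in mutants at 0 dpci, with 15.2 and 15.00 CPM in mutants, against 10.3 and 9.07 CPM in wild-type hearts, a log2 fold change of 0.64 (SE 0.119, adjusted p = 5.31e-06 in edgeR). After injury pfklb differed by 0.058, 0.053 and 0.08 at 2, 7 and 21 dpci. The genotype difference at 7 dpci minus that at 0 dpci was −0.59 (SE 0.181, adjusted p = 0.0107 in edgeR), and without the second wild-type sample of 0 dpci it was −0.50 (adjusted p = 0.0654 in edgeR), without that of 7 dpci −0.53 (adjusted p = 0.0669). Its paralog pfkla stayed within −0.10 to 0.025 between genotypes and fell in both genotypes at 2 and 7 dpci.

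Aldolase splits fructose 1,6-bisphosphate into a pair of triose phosphates. The muscle-type aldoaa averaged 6034 ± 23.9, 2254 ± 2.34, 3023 ± 26.6 and 4559 ± 87.4 CPM in mutants at 0, 2, 7 and 21 dpci (SD, n = 2 each), and 7217 ± 66.3, 2859 ± 26.8, 4201 ± 23.6 and 6309 ± 46.8 CPM in wild type. Mutant samples lay below wild-type samples at each stage, yet none of its log2 fold changes between genotypes (−0.26, −0.34, −0.47 and −0.47) passed the size limit of the call. Its paralog aldoab was lower in mutants at 2 dpci (774 and 780.1 CPM in mutants, against 1167 and 1170.5 CPM in wild-type hearts, log2 fold change −0.59) and at 21 dpci (1279 and 1312 CPM in mutants, against 1895 and 1888 CPM in wild-type hearts, log2 fold change −0.55). The brain-type aldocb separated the genotypes late. In mutants it stood at 447 and 423 CPM at 0 dpci, 305 and 305 CPM at 2 dpci, 302 and 314 CPM at 7 dpci and 283 and 283 CPM at 21 dpci, and in wild type at 444 and 432 CPM at 0 dpci, 301 and 304 CPM at 2 dpci, 255 and 259 CPM at 7 dpci and 609 and 616 CPM at 21 dpci. The samples of the genotypes overlapped at 0 dpci, lay close together at 2 dpci and were far apart at 21 dpci, where wild type was above its own uninjured level and mutants were below theirs. Mutant over wild type, its log2 fold change was −1.11 (SE 0.03496, adjusted p = 2.16e-40 in edgeR) at 21 dpci, and −0.0098, 0.011 and 0.26 at 0, 2 and 7 dpci. Over uninjured hearts aldocb changed by −0.62 (SE 0.03499, adjusted p = 1.23e-25 in edgeR) in mutants at 21 dpci, and the interaction at that stage was −1.10 (SE 0.0487, adjusted p = 1.24e-31 in edgeR).

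Triose phosphate isomerase, which interconverts the triose phosphates, was counted mostly on tpi1b. It averaged 909, 612, 665 and 893 CPM in mutants at 0, 2, 7 and 21 dpci, against 1035, 704, 713 and 1038 CPM in wild type. Both tpi1b and the low tpi1a (5.35 to 9.37 CPM over all samples) stayed between −0.26 and 0.047 on the log2 scale between genotypes, and neither was called.

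Glyceraldehyde-3-phosphate dehydrogenase makes the NADH of glycolysis. In mutants gapdh stood at 18187 and 18573 CPM at 0 dpci, 5212 and 5101 CPM at 2 dpci, 8628 and 8648 CPM at 7 dpci and 13337 and 13725 CPM at 21 dpci. In wild type it stood at 18852 and 19239.8 CPM at 0 dpci, 7623 and 7626 CPM at 2 dpci, 12364 and 11840.2 CPM at 7 dpci and 19851 and 19814 CPM at 21 dpci. It was lowest at 2 dpci in both genotypes, and mutants lay below wild type at each stage, narrowly at 0 dpci and clearly after injury. Between genotypes the log2 fold change, mutant over wild type, was −0.051 at 0 dpci, −0.56 (SE 0.0218, adjusted p = 1.3e-34 in edgeR) at 2 dpci, −0.49 at 7 dpci (under the size limit) and −0.55 (SE 0.0217, adjusted p = 2.02e-34 in edgeR) at 21 dpci. In mutants gapdh fell by 1.83 on the log2 scale at 2 dpci (SE 0.0224, adjusted p = 3.55e-68 in edgeR) and by 1.09 at 7 dpci (SE 0.02195, adjusted p = 9.44e-54 in edgeR). The corresponding log2 fold changes in wild type were −1.32 and −0.65, both called. The gene is often used as a reference in qPCR, although the study itself used elfa as its reference.

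The paralog gapdhs, the sperm-type form of mammals, was higher at 2 dpci than before injury in both genotypes, where gapdh was lower. In mutants it stood at 298 and 297 CPM at 0 dpci, 764 and 773 CPM at 2 dpci, 441 and 438 CPM at 7 dpci and 202 and 214 CPM at 21 dpci. Wild-type samples stood at 429 and 421 CPM at 0 dpci, 577 and 585 CPM at 2 dpci, 402 and 404 CPM at 7 dpci and 223 and 228 CPM at 21 dpci. It was highest at 2 dpci in both genotypes, and mutants were below wild type at 0 dpci and above it at 2 and 7 dpci. Set over wild type, the mutant log2 fold change was called at 0 dpci (−0.51 (SE 0.0338, adjusted p = 3.6e-22 in edgeR)) and was 0.40, 0.12 and −0.12 at 2, 7 and 21 dpci. In mutants gapdhs rose by 1.37 (SE 0.0338, adjusted p = 3.26e-48 in edgeR) at 2 dpci and 0.56 (SE 0.0342, adjusted p = 2.09e-24 in edgeR) at 7 dpci. In wild type the log2 fold change at 2 dpci was 0.45, under the size limit, and the samples of 7 dpci lay below those of 0 dpci. At 21 dpci gapdhs fell in both genotypes, with log2 fold changes of −0.52 in mutants and −0.91 in wild type. Without the first mutant sample of 21 dpci the mutant value was −0.48. The interaction was 0.92 (SE 0.0471, adjusted p = 1.24e-27 in edgeR) at 2 dpci and 0.64 (SE 0.0478, adjusted p = 7.59e-19 in edgeR) at 7 dpci. For each 100 reads of gapdh there were 14.7 and 15.2 reads of gapdhs in mutants at 2 dpci, against 7.57 and 7.67 in wild type. Before injury these were 1.64 and 1.602 in mutants and 2.28 and 2.19 in wild type.

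**Figure D4:**
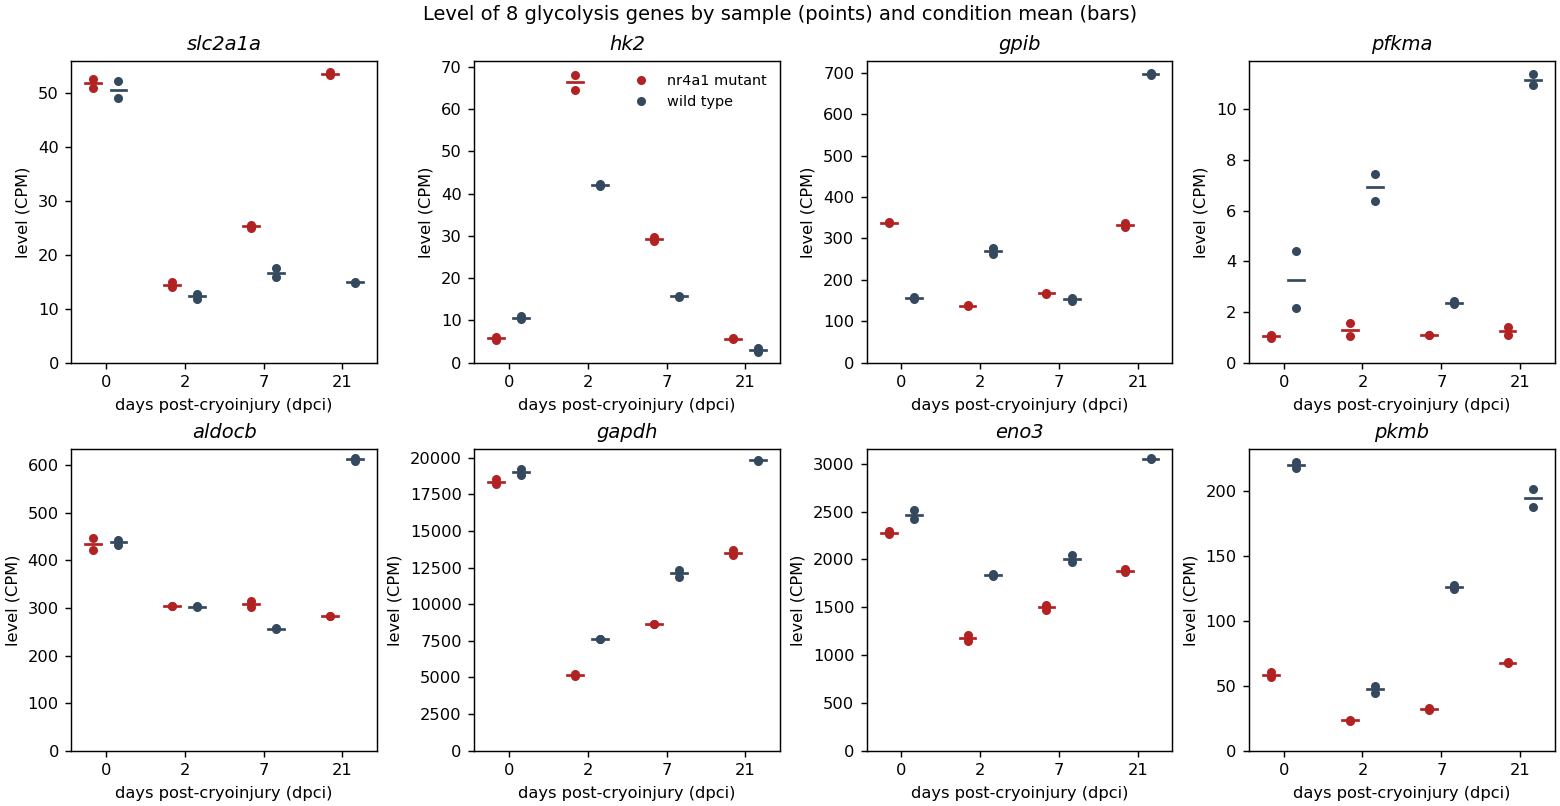
Level in CPM (linear axes from 0) of slc2a1a, hk2, gpib, pfkma, aldocb, gapdh, eno3 and pkmb in every sample against days post-cryoinjury, with nr4a1 mutant (red) left of wild type (dark) and bars at the mean of the 2 samples. The mutant points of pfkma and pkmb are below the wild-type points at all stages, hk2 peaks at 2 dpci, gpib crosses between stages, and slc2a1a at 21 dpci is at 53.7 and 53.3 CPM in mutants, against 14.9 and 14.8 CPM in wild type.

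Phosphoglycerate kinase makes the first ATP of the pathway. Its gene pgk1 averaged 900 ± 26.7, 672 ± 15.2, 595 ± 1.99 and 758 ± 1.503 CPM in mutants at 0, 2, 7 and 21 dpci, and 1120.3 ± 12.05, 763 ± 9.19, 716 ± 1.72 and 1017 ± 9.05 CPM in wild type (SD, n = 2 each). Mutant samples were below wild-type samples at each stage, with log2 fold changes between −0.42 and −0.18 that did not pass the size limit. Phosphoglycerate mutase moves the phosphate to the next carbon, and its muscle form pgam2 was lower in mutants at 2 dpci, with 132 and 131 CPM in mutants, against 201 and 191 CPM in wild-type hearts, a log2 fold change of −0.58 (SE 0.0409, adjusted p = 2.93e-20 in edgeR). At 0, 7 and 21 dpci its log2 fold changes were −0.26, −0.28 and −0.50. Neither pgam1a nor pgam1b was called between genotypes, with log2 fold changes between −0.32 and 0.35.

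Enolase makes phosphoenolpyruvate and is encoded by eno1a, eno1b, the neuron-type eno2 and the muscle-type eno3. In mutants eno3 stood at 2264 and 2294 CPM at 0 dpci, 1145 and 1206 CPM at 2 dpci, 1471 and 1528 CPM at 7 dpci and 1868 and 1899.6 CPM at 21 dpci. Levels in wild type were 2513 and 2419.6 CPM at 0 dpci, 1827 and 1846 CPM at 2 dpci, 2043 and 1970.3 CPM at 7 dpci and 3057 and 3049.9 CPM at 21 dpci. The genotypes did not overlap at any stage, and only wild type exceeded its uninjured level at 21 dpci. Across genotypes, mutant over wild type, the log2 fold change was −0.64 (SE 0.0281, adjusted p = 1.44e-31 in edgeR) at 2 dpci and −0.70 (SE 0.0279, adjusted p = 4.56e-34 in edgeR) at 21 dpci, with −0.11 and −0.42 at 0 and 7 dpci. By contrast, eno1a stayed between −0.24 and 0.054 between genotypes. Per 100 reads of eno1a, 116 and 123 reads of eno3 were counted in mutants at 2 dpci, against 181 and 185 in wild type, and the ratios of 0 dpci were 198 and 197 in mutants and 203 and 198 in wild type. The low eno1b peaked at 2 dpci in both genotypes. It had 20.05 and 23.1 CPM at 2 dpci and 5.32 and 6.23 CPM at 0 dpci in mutants, and 17.6 and 19.3 CPM at 2 dpci and 4.34 and 4.71 CPM at 0 dpci in wild type. The log2 fold change was 1.90 (SE 0.136, adjusted p = 5.98e-21 in edgeR) in mutants and 2.03 (SE 0.1403, adjusted p = 1.25e-21 in edgeR) in wild type, and the genotypes were called different at no stage.

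Counts of eno2 were low, with 36 to 131 reads a sample. At 0 dpci it had 1.899 and 2.78 CPM in mutants, against 4.46 and 5.605 CPM in wild-type hearts, without overlap, a log2 fold change of −1.11 (SE 0.213, adjusted p = 1.16e-05 in edgeR). At 7 dpci it had 2.63 and 2.28 CPM in mutants, against 3.61 and 3.95 CPM in wild-type hearts, and the log2 fold change of −0.62 (SE 0.231, adjusted p = 0.0365 in edgeR) lost its call without any 1 of the 4 samples (mutant sample 1 or 2, wild-type sample 1 or 2), with values of −0.72, −0.52, −0.66 and −0.54 in that order. In mutants eno2 rose at 2 dpci (0.90), and the genotype difference changed from that at 0 dpci by 1.43 (SE 0.301, adjusted p = 8.75e-05 in edgeR) at 2 dpci.

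Pyruvate kinase yields the second ATP and pyruvate. Its main genes are pkma and pkmb, paralogs of mammalian PKM. In mutants pkmb stood at 56.4 and 60.7 CPM at 0 dpci, 23.1 and 23.6 CPM at 2 dpci, 32.6 and 31.5 CPM at 7 dpci and 67.97 and 67.7 CPM at 21 dpci. In wild type it stood at 222 and 218 CPM at 0 dpci, 44.3 and 50.2 CPM at 2 dpci, 128 and 124 CPM at 7 dpci and 187 and 202 CPM at 21 dpci. Mutant samples were below wild-type samples at every stage without overlap, and both genotypes were lowest at 2 dpci. Mutant over wild type, its log2 fold change was −1.91 (SE 0.04901, adjusted p = 4.52e-46 in edgeR) at 0 dpci, −1.02 (SE 0.0675, adjusted p = 1.31e-21 in edgeR) at 2 dpci, −1.97 (SE 0.0574, adjusted p = 2.67e-42 in edgeR) at 7 dpci and −1.52 (SE 0.0493, adjusted p = 1.63e-39 in edgeR) at 21 dpci. In wild type pkmb had the deepest fall of all 34 genes at 2 dpci, −2.22 (SE 0.05100, adjusted p = 3.98e-50 in edgeR), and in mutants the value was −1.32 (SE 0.0649, adjusted p = 6.8e-30 in edgeR). The genotype difference was smaller in size at 2 dpci than at 0 dpci, by an interaction of 0.89 (SE 0.0852, adjusted p = 2.1e-14 in edgeR), and the interactions at 7 and 21 dpci (−0.063 and 0.39) were not called. In contrast, pkma was called between genotypes at no stage (−0.33, −0.031, −0.10 and −0.25). For each 100 reads of pkma, pkmb had 6.09 and 6.67 reads at 0 dpci and 4.16 and 4.102 at 7 dpci in mutants, against 18.8 and 19.4 at 0 dpci and 15.4 and 14.9 at 7 dpci in wild type. The sources used here do not state how reads that align to more than 1 place were counted, and the part of read assignment between paralogs was not tested.

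The liver and red cell form pklr was near the detection limit, with 4 to 30 reads a sample. At 0 dpci 13 and 17 reads were counted in mutants, against 7 and 4 in wild type, or 0.617 and 0.828 CPM in mutants, against 0.289 and 0.171 CPM in wild type. The log2 fold change was 1.62 (SE 0.571, adjusted p = 0.017 in edgeR), and without the second mutant sample it was 1.39 (adjusted p = 0.12 in edgeR) and without the second wild-type sample 1.30 (adjusted p = 0.128 in edgeR), neither of them called. In wild type pklr had 1.01 and 1.22 CPM at 7 dpci, against 0.289 and 0.171 CPM at 0 dpci, a log2 fold change of 2.25 (SE 0.534, adjusted p = 0.000234 in edgeR). Erythrocyte markers, whose cells use pklr, summed to 1853 CPM at 7 dpci and 1036 CPM at 0 dpci in mutants, and to 2059.7 CPM at 7 dpci and 2022 CPM at 0 dpci in wild type. Liver markers (4 tested) summed to 357 CPM at 7 dpci and 85.9 CPM at 0 dpci in mutants, and to 189.5 CPM at 7 dpci and 49.3 CPM at 0 dpci in wild type. All 4 rose at 7 dpci in wild type. The part of both marker lists in the level of pklr was not tested.

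Lactate dehydrogenase turns pyruvate into lactate and back, and MCT4, encoded by slc16a3, carries lactate out of the cell. The form that favours lactate, ldha, stood at 805 and 818 CPM at 0 dpci, 514 and 484 CPM at 2 dpci, 557 and 550 CPM at 7 dpci and 682 and 678 CPM at 21 dpci in mutants. In wild type ldha stood at 1109 and 1127 CPM at 0 dpci, 814 and 809 CPM at 2 dpci, 623 and 605 CPM at 7 dpci and 1009 and 1014 CPM at 21 dpci. Mutants were below wild type at each stage without overlap, and the calls were −0.70 (SE 0.0314, adjusted p = 5.7e-31 in edgeR) at 2 dpci and −0.57 (SE 0.03095, adjusted p = 1.82e-26 in edgeR) at 21 dpci, with −0.46 and −0.15 at 0 and 7 dpci. The heart form ldhba was close between genotypes, with log2 fold changes of −0.04, −0.012, 0.0012 and 0.24. Per 100 reads of ldhba, 48.1 and 45.5 reads of ldha were counted in mutants at 2 dpci, against 75.8 and 75.03 in wild type, and 33.7 and 32.5 in mutants at 21 dpci, against 58.2 and 57.96 in wild type. The low ldhbb was called at 0 dpci only, with 8.88 and 9.45 CPM in mutants, against 6.98 and 5.39 CPM in wild-type hearts, a log2 fold change of 0.56 (SE 0.159, adjusted p = 0.00261 in edgeR). Without the second wild-type sample it was 0.39 (adjusted p = 0.102 in edgeR) and not called. At 2 dpci the genotype difference in ldhbb had changed from that at 0 dpci by −0.87 (SE 0.253, adjusted p = 0.0045 in edgeR), and it was −0.49 and not called without the first wild-type sample of 2 dpci.

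The lactate exporter gene was also lower in mutants. In mutants slc16a3 stood at 306 and 318 CPM at 0 dpci, 249.7 and 252 CPM at 2 dpci, 172 and 177 CPM at 7 dpci and 294 and 298 CPM at 21 dpci. Wild-type samples stood at 459 and 471 CPM at 0 dpci, 321 and 316 CPM at 2 dpci, 300.2 and 295 CPM at 7 dpci and 415 and 413 CPM at 21 dpci. Mutants lay below wild type at all 4 stages without overlap, and the log2 fold change was called at 0 dpci (−0.58 (SE 0.0346, adjusted p = 3.34e-24 in edgeR)) and 7 dpci (−0.77 (SE 0.0371, adjusted p = 3.21e-29 in edgeR)), with −0.34 and −0.48 at 2 and 21 dpci. Averaged over the 4 stages, 2 of the 34 genes (slc2a1a at 0.68 and pklr at 0.94) were higher and 4 (pfkma at −2.08, pkmb at −1.60, pfkpb at −0.56 and slc16a3 at −0.54) lower in mutants, where 13.5% of all genes were called.

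The question whether the course after injury differed between genotypes was put to the interaction term for all 34 genes. At 2 dpci 4 genes had an interaction above and 5 one below 0 by the call, with 22.2% of all genes called. At 7 dpci these were 3 and 2 (14.2% of all genes, 7.3% above and 6.86% below 0), and at 21 dpci 3 and 9 (24%). The calls were near the share over all genes at 2 and 7 dpci. At 21 dpci, 9 of 34 below 0 stood beside 11.4% of all genes. At 21 dpci the largest positive interactions were those of hk2 (1.82) and slc2a1a, 1.82 (SE 0.103, adjusted p = 1.55e-25 in edgeR), and the largest negative those of gpib (−2.18) and pfkma (−1.49).

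The steps around glycolysis were described from lists of their own, whose shares of called genes between genotypes are given at 0, 2, 7 and 21 dpci. Of all genes, 23.7%, 16.8%, 13% and 16.3% were called at these stages. Of 8 genes that set the level of fructose 2,6-bisphosphate, the activator of phosphofructokinase, 1 was higher and 2 lower in mutants at 0 dpci, 1 and 3 at 2 dpci, 2 and 3 at 7 dpci, and 3 were lower at 21 dpci, with medians between −0.49 and −0.15 (called: 37.5%, 50%, 62.5% and 37.5%). The members went both ways. One of the genes for the enzymes that make and break down the activator, pfkfb3, had 25.5 and 23.9 CPM in mutants, against 6.902 and 6.08 CPM in wild-type hearts at 0 dpci, a log2 fold change of 1.93 (SE 0.112, adjusted p = 5.56e-25 in edgeR). At 2 dpci it had 33.6 and 34.8 CPM in mutants, against 16.1 and 13.5 CPM in wild-type hearts, a log2 fold change of 1.21 (SE 0.0984, adjusted p = 1.86e-17 in edgeR). It was also called higher at 7 dpci (0.86). Another of that family, pfkfb4a, was lower in mutants at all 4 stages. It had 28.9 and 29.4 CPM in mutants, against 50.5 and 52.7 CPM in wild-type hearts at 0 dpci, a log2 fold change of −0.82 (SE 0.0642, adjusted p = 1.62e-18 in edgeR). At 21 dpci it had 59.2 and 56.9 CPM in mutants, against 107 and 111 CPM in wild-type hearts, a log2 fold change of −0.91 (SE 0.0561, adjusted p = 2.55e-23 in edgeR). The gene pfkfb2a was lower at 2, 7 and 21 dpci. The low pfkfb1 had 0 and 0 reads in mutants at 2 dpci, against 6 and 14 in wild type, too few for a fold here.

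Further transporters and hexokinases (11 genes tested) had 3 higher and 2 lower at 0 dpci, 2 and 3 at 2 dpci, 1 and 2 at 7 dpci, and 1 and 3 at 21 dpci (called: 45.5%, 45.5%, 27.3% and 36.4%). The transporter gene slc2a6 was higher in mutants at all 4 stages, with 13.7 and 14.03 CPM in mutants, against 4.92 and 2.99 CPM in wild-type hearts at 0 dpci (log2 fold change 1.80 (SE 0.143, adjusted p = 4.41e-18 in edgeR)) and 11.05 and 14.7 CPM in mutants, against 4.85 and 3.16 CPM in wild-type hearts at 21 dpci (log2 fold change 1.67 (SE 0.156, adjusted p = 9.81e-15 in edgeR)). The lactate and pyruvate transporter gene slc16a1a was lower in mutants at 21 dpci, with 3.62 and 3.39 CPM in mutants, against 16.03 and 14.97 CPM in wild-type hearts, a log2 fold change of −2.14 (SE 0.162, adjusted p = 6.78e-19 in edgeR). The related slc16a1b was lower in mutants at 0, 7 and 21 dpci. It had 140.3 and 137 CPM in mutants, against 241 and 239.6 CPM in wild-type hearts at 21 dpci, a log2 fold change of −0.79 (SE 0.04097, adjusted p = 1.58e-27 in edgeR). The low hexokinase gene hkdc1 was called lower in mutants at all 4 stages. Its reads numbered 6 and 8 in mutant hearts, against 45 and 30 in wild-type hearts, at 0 dpci, and 1 and 0 in mutant hearts, against 40 and 39 in wild-type hearts, at 21 dpci. The glucokinase gene gck, as low, was higher in mutants at 2 dpci, with 11 and 17 reads in mutant hearts, against 2 and 3 in wild-type hearts. Macrophage markers summed to 389, 704, 1309 and 654 CPM in mutants at 0, 2, 7 and 21 dpci, against 324, 618, 1148 and 398 CPM in wild type. The 9 markers tested had median log2 fold changes of −0.13, 0.066, 0.13 and 0.51, mutant over wild type. Of the 9, 4, 6, 7 and 8 lay above 0 at these stages. The 7 neutrophil markers tested had medians of 1.37, 0.34, 1.19 and 0.81, with 6, 5, 7 and 7 of them above 0. They summed to 43.5, 108, 118 and 46.2 CPM in mutants, against 15.1, 143, 59.8 and 24.4 CPM in wild type. Their sum was thus lower in mutants at 2 dpci, where 0 of them were called higher and 1 lower. For the 6 cell cycle markers the medians were −0.13, −0.11, −0.38 and 1.39, with 2, 2, 2 and 6 above 0. The part of these marker lists in the levels of slc2a6 and of hk2 was not tested.

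Where pyruvate enters mitochondria (14 genes tested), the mutants had 2 higher and 1 lower genes at 0 dpci, 1 and 3 at 2 dpci, 3 lower genes at 7 dpci and 2 higher genes at 21 dpci (called: 21.4%, 28.6%, 21.4% and 14.3%). The kinase gene pdk2a, whose product holds back pyruvate dehydrogenase, had 109 and 107 CPM in mutants, against 318 and 335 CPM in wild-type hearts at 0 dpci, a log2 fold change of −1.59 (SE 0.0403, adjusted p = 1.91e-46 in edgeR). It was also called lower at 2 dpci (−1.31). The genes higher at 21 dpci were of the same kinase family. There pdk2b had 90.6 and 96.9 CPM in mutants, against 47.9 and 46.3 CPM in wild-type hearts, a log2 fold change of 0.99 (SE 0.0593, adjusted p = 4.26e-24 in edgeR), and pdk1 a log2 fold change of 0.68 (SE 0.166, adjusted p = 0.00073 in edgeR). In the NADH shuttles (11 genes), 2, 3, 2 and 3 were lower at 0, 2, 7 and 21 dpci (called: 18.2%, 27.3%, 18.2% and 27.3%). The cytosolic malate dehydrogenase mdh1ab was lower in mutants at all 4 stages, with log2 fold changes of −0.65 (SE 0.0372, adjusted p = 2.69e-25 in edgeR) at 0 dpci and −0.76 (SE 0.0406, adjusted p = 1.12e-26 in edgeR) at 2 dpci. In the pentose phosphate pathway (8 genes), which branches off at glucose 6-phosphate, 1, 1, 2 and 1 genes were higher at these stages (called: 12.5%, 12.5%, 25% and 12.5%). The transketolase gene tkta was called higher at 0 dpci (1.05), 2 dpci (1.04) and 7 dpci. At 7 dpci tkta had 11.96 and 10.9 CPM in mutants, against 3.67 and 3.45 CPM in wild-type hearts, a log2 fold change of 1.69 (SE 0.153, adjusted p = 3.02e-15 in edgeR).

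Of 14 glycogen genes tested, 2 were higher at 0 dpci and 2 lower at 2 dpci, 1 was higher at 7 dpci, and 1 was higher and 2 lower at 21 dpci (called: 14.3%, 14.3%, 7.14% and 21.4%), under the shares over all genes except at 21 dpci. At 2 dpci the muscle phosphorylase pygma, which frees glucose from glycogen, had 29.6 and 30.03 CPM in mutants, against 63.03 and 59.9 CPM in wild-type hearts, a log2 fold change of −1.04 (SE 0.0612, adjusted p = 1.74e-24 in edgeR). Gluconeogenesis genes (8 tested) had at most 2 calls in one direction at any stage (called: 12.5%, 37.5%, 12.5% and 12.5%). Hypoxia-inducible factor drives glycolysis genes in low oxygen. Of 14 genes of the factor and its oxygen sensors, 2 were higher and 2 lower at 0 dpci, 2 and 2 at 2 dpci, and 5 were lower at 21 dpci, with a median of −0.39 at 21 dpci. The sensor gene egln3 turned between stages, with 24.1 and 28.2 CPM in mutants, against 8.64 and 9.63 CPM in wild-type hearts at 0 dpci (log2 fold change 1.52 (SE 0.108, adjusted p = 2.22e-20 in edgeR)) and 4.51 and 4.400 CPM in mutants, against 11.9 and 13.2 CPM in wild-type hearts at 21 dpci (log2 fold change −1.49 (SE 0.142, adjusted p = 1.99e-14 in edgeR)). Of 15 other hypoxia-inducible genes, 2 were higher and 1 lower at 0 dpci, 3 and 2 at 2 dpci, and 1 and 4 at 21 dpci. These hypoxia lists had called shares of 28.6% and 20% at 0 dpci, 28.6% and 33.3% at 2 dpci, and 35.7% and 33.3% at 21 dpci. At 7 dpci edgeR and DESeq2 called 0 genes of both. An unadjusted p under 0.05 in edgeR was had by 7 of 14 and 10 of 15, and the medians were 0.027 and 0.057.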

How the data were processed

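RNA-seq reads of 16 ventricle samples, 2 in each of 8 conditions, were checked with FastQC, aligned with STAR to GRCz11 (danRer11) and counted per gene with featureCounts, as the submitters' processing notes and the study's methods name these tools. Their versions, the strand setting and the treatment of reads with several alignments are not given in the sources used here. The authors deposited raw, unscaled counts, with a symbol for each gene and no coordinates, and every sample column was matched to its label. The reference gene table at hand is of another assembly, so no positions or sequences are given.

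A gene was tested where 2 or more samples held 10 or more reads of it, which left 18949 genes. Their counts were scaled by TMM and fitted over all samples with 1 coefficient per condition in edgeR 4.0.16 (R 4.3.3, limma 3.58.1), with glmQLFit and glmQLFTest. P-values were adjusted over all these genes by the Benjamini-Hochberg method. A call needs an adjusted p under 0.05 and a log2 fold change over 0.5 in size, the study's thresholds. With these thresholds the study reported fewer genes between genotypes at each stage. Its own fit used DESeq2 and took batch effects into account. Standard errors are the log2 fold change over the square root of the F statistic. The common biological coefficient of variation was 3.42%. Totals ran between 14333475 and 27668498 counts a sample, and replicates of each condition differed by more than counting noise.

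The members, the lists and the tests were chosen with earlier results of these data known. All members are named. In full, with every sample, are given the called genes with the 3 largest positive and 3 largest negative log2 fold changes at each stage between genotypes. After injury, and for the interactions, the limit is 2 in each direction. From each other list at most 4 called genes are named, with pfkfb2a, pfkfb4a, slc16a1b and pdk1 added after their values were seen, and symbols not found in the table (among them pdpr and vmhc) were not replaced. Other members are given by range, count or level. Alternatives were relative log expression scaling, DESeq2 1.42.0, no filter, a fit on the compared conditions alone, a replicate block and leaving out each sample. On simulated counts of 18949 genes with 200 changed by a log2 of 1 between genotypes at 2 dpci, edgeR called 200 changed and 0 unchanged genes and DESeq2 198 and 0. The changed genes were drawn only from those above a set mean level. All genes were given the same dispersion, and no other gene was changed. The simulation thus does not check the recovery of genes as low as pfkma and pklr.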

Additional observations from a re-analysis of the deposited data

Results flagged for a closer look

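A test of the difference itself, the interaction term in edgeR, called the following changes of the genotype difference from that at 0 dpci, and each is given in log2 units, above 0 where mutants moved up relative to wild type. At 2 dpci the values were 1.54 for hk2, 1.43 for eno2, 0.92 for gapdhs and 0.89 for pkmb, and −2.09 for gpib, −0.87 for ldhbb, −0.58 for pfklb, −0.53 for eno3 and −0.51 for gapdh. At 7 dpci they were 1.79 for hk2, 0.64 for gapdhs and 0.56 for slc2a1a, and −0.98 for gpib and −0.59 for pfklb. At 21 dpci they were 1.82 for hk2, 1.82 for slc2a1a and 0.94 for eno2, and −2.18 for gpib, −1.49 for pfkma, −1.10 for aldocb, −1.02 for ldhbb, −0.65 for hk1, −0.58 for eno3, −0.56 for pfklb, −0.54 for pgam1b and −0.50 for gapdh. All of them share the uninjured samples.

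Several of these calls rest close to a limit. For eno2 at 21 dpci the value was 0.68 without mutant sample 1 of 0 dpci, 0.87 without mutant sample 1 of 21 dpci, 0.76 without wild-type sample 2 of 0 dpci and 0.80 without wild-type sample 2 of 21 dpci, each time without a call. The gapdh values at 2 and 21 dpci lie at the size limit, and among other settings they were under it at −0.50 with relative log expression scaling (2 dpci) and −0.48 with no filter (21 dpci). For pfklb, leaving out wild-type sample 2 of 0 dpci gave −0.50 at 2 dpci and −0.47 at 21 dpci, and leaving out mutant sample 1 of 2 dpci, mutant sample 2 of 21 dpci or wild-type sample 2 of 21 dpci gave −0.46, −0.49 and −0.38 at the stage left out, none called. For eno3 at 2 dpci the value was −0.47 without mutant sample 1 and −0.50 without wild-type sample 2 of that stage. For pfklb at 7 dpci it was −0.56 by DESeq2 (adjusted p = 0.0541 by DESeq2), −0.50 without wild-type sample 2 of 0 dpci and −0.53 without that of 7 dpci. For ldhbb at 2 dpci it was −0.49 without wild-type sample 1 of that stage. The pgam1b value was −0.49 without wild-type sample 2 of 21 dpci.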

How the results depend on the processing

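Of the 228 calls made over the 34 glycolysis genes and 18 comparisons, 199 were made under every alternative, 29 were lost under at least 1, and 0 changed direction. The alternatives were 5 other settings and 16 samples left out in turn, where a condition with 1 sample left is assumed to vary like the others. A fit on the compared conditions alone was not run for the average over stages, which uses every condition. Leaving out samples changed a count of calls by over 1.5 times in 2 comparisons. With samples left out, 3 to 5 genes were called for 21 over 0 dpci in mutants (5 with all samples), with 3 called without sample 2 of 0 or of 21 dpci. In wild type 5 to 10 were called (8 with all samples), with 5 called without sample 2 of 0 or of 21 dpci. Sample numbers do not pair the samples (correlation of same-numbered deviations between −0.0307 and 0.0321 over 28 pairs of conditions). With the replicate block, 12, 9, 7 and 12 genes were called between genotypes at 0, 2, 7 and 21 dpci, as without it, and over all genes the block gave 4452, 3171, 2421 and 3069 calls in place of 4482, 3192, 2457 and 3092. Most of the lost calls were of eno2, pklr, gapdh, ldhbb and pfklb. Reads numbered 36 to 131 a sample for eno2, 4 to 30 for pklr and 73 to 194 for ldhbb, and 17 to 216 for pfkma, whose calls were lost under no alternative. The lost gapdh calls were of the values at the size limit given above. The cause of the losses was not tested.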
